A study of Mus musculus with 2 samples.

Results

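The collagen-rich tumor of section 1 was 1 connected area of 754 spots in a cerebellar section that carried a tumor grown from mammary tumor organoids. A spot is a small barcoded region of the slide that can hold several cells, and a unique molecular identifier (UMI) marks 1 captured molecule. A spot was a member if it lay under tissue in section 1, held at least 20000 UMIs and had at least 10000 CPM (UMIs of a gene per 1000000 UMIs of all genes) of *Col1a1* and *Col3a1* together, the genes for the main chains of type I and type III collagen. These 754 spots were 22.1% of the 3406 spots under tissue in section 1 and held 63.3% of its UMIs, and the whole series had 7423 spots under tissue in 2 sections. The reference within the same section was 1986 neural spots with at least 2000 UMIs, under 2000 CPM of *Col1a1* and *Col3a1* and at least 2000 CPM of *Mbp* and *Snap25*, which mark myelin and synapses. The spots were thus chosen by the UMI total, *Col1a1*, *Col3a1*, *Mbp* and *Snap25*, whose values are description only.

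Both sections came from untreated C57BL/6 mice, 1 mouse each, whose cerebellum had received HP organoid cells on 1 side. HP organoids are luciferase-labelled mouse mammary tumor organoids with a human HER2 V777L transgene and PIK3CA H1047R. They came from primary tumors that Cre-expressing adenovirus had induced in the mammary gland. The labels give the organoids as HP-F1 +cre for section 1 and HP-B6 +cre for section 2, and give no age for the mice. Another label names the organoids of both sections alike as B6-HP, so whether they are different lines is not settled by the labels. The hosts kept an intact immune system, each section is 1 tumor, and no group holds more than 1 section, so the ratios below have no replicate check and carry no p-value. Each ratio is given on the log2 scale with an exact 95% interval that covers counting error only.

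Fibrillar collagens are secreted as procollagen, trimmed, cross-linked and woven with fibronectin, proteoglycans and matricellular proteins into the extracellular matrix, mostly by fibroblasts and other mesenchymal cells. Normal cerebellum holds little fibrillar collagen outside vessels and meninges, whereas carcinomas can carry a fibroblast-rich stroma, and carcinoma cells themselves can lose keratins and cadherin in an epithelial-mesenchymal transition (EMT). Antigen presentation by major histocompatibility complex (MHC) class II is restricted mainly to macrophages, dendritic cells and B cells, and interferon-gamma can induce it in other cells.

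The median member held 54613.5 UMIs, with a range of 20127 to 94899, against 8309.5 in the neural spots, a ratio of 6.57 that the rule partly set. In the lowest member *Col1a1* and *Col3a1* together stood at 10338.5 CPM and the highest spot outside stood at 9686 CPM, and by UMIs the corresponding spots held 20127 and 19943. Of the 903 spots of section 1 with at least 20000 UMIs, 149 were not collagen-rich, and 98 of these counted as neural. A further 56 spots passed the collagen limit with fewer UMIs, at a median of 13552.5. The area reached the edge of the array, with 14 spots in its first row, and 27 spots of its far zone and 4 of its near zone had fewer than 6 neighbors under tissue. The sections share 3096 spot barcodes because barcodes mark positions on the array.

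**Figure D1:**
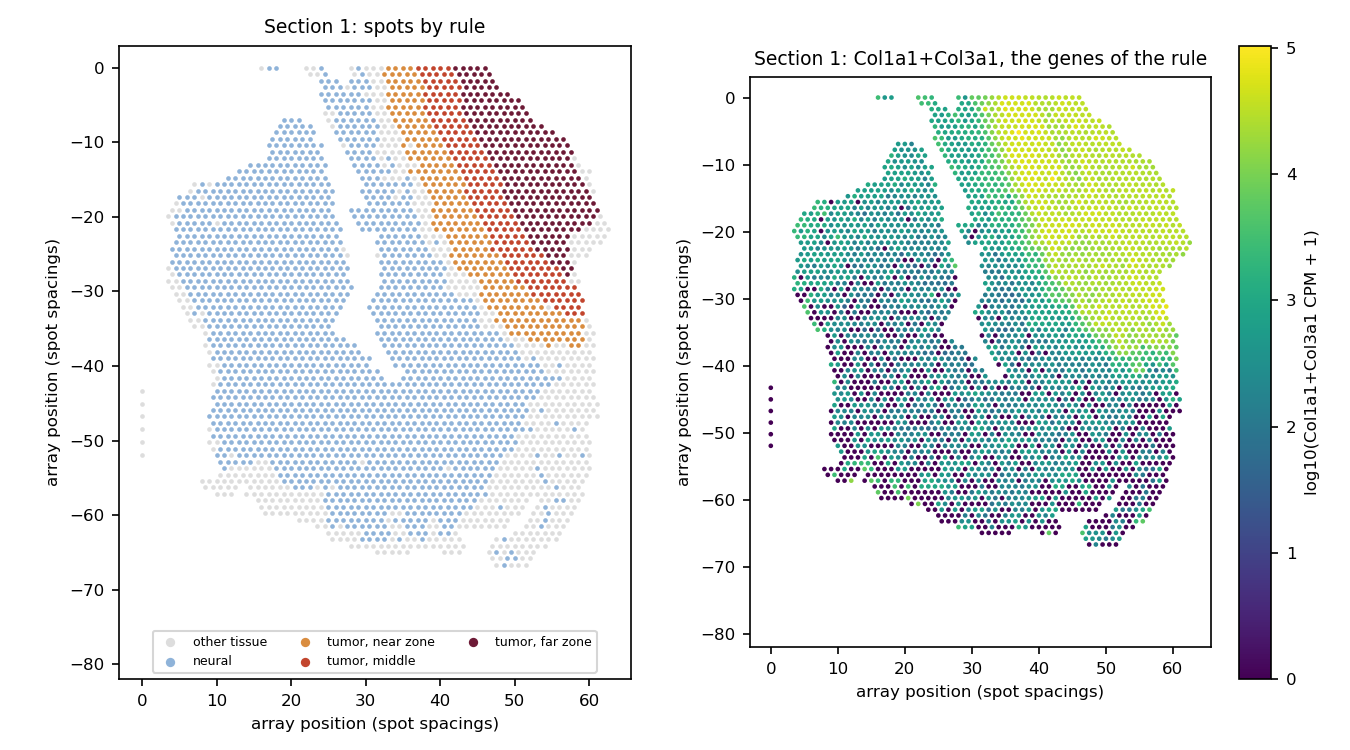
Spots of section 1 at their positions on the array in spot spacings, colored on the left by class (neural, other tissue and the near, middle and far zones of the tumor by distance from neural spots) and on the right by the summed CPM of *Col1a1* and *Col3a1*, the genes of the rule, as log10(CPM + 1). The 754 collagen-rich spots form 1 piece at the upper right, where the array ends.

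None of the 4017 spots of section 2 passed the same rule, and the highest value of *Col1a1* and *Col3a1* together among its 1178 spots with at least 20000 UMIs was 5420 CPM. The dense tumor of section 2 was instead described by 847 epithelial spots with at least 20000 UMIs and at least 2000 CPM of *Epcam*, *Krt7* and *Krt8*, a median of 41206 UMIs and under 10000 CPM of *Col1a1* and *Col3a1*. It is the other dense tumor region of the series and serves below as a second reference, although section and tumor cannot be told apart in that comparison.

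Of 19465 genes with a probe, 12204 reached at least 10 CPM in the collagen-rich tumor or the neural spots of section 1, and 2155 of them (17.7%) were at least 2-fold higher and 3280 (26.9%) at least 2-fold lower in the tumor. The median log2 ratio over these genes was -0.18. A scaling by trimmed means (TMM) adds 0.34 to every log2 ratio of this comparison and changes the split to 2935 higher and 2598 lower, so a ratio between -0.34 and 0 has no settled sign. Against the epithelial tumor of section 2, 1459 of 11157 genes (13.1%) were at least 2-fold higher and 1710 (15.3%) at least 2-fold lower, and centring on the median turned this split to 1726 and 1323. In every such ratio, more cells of a type and more RNA per cell cannot be told apart. The counts in the gene lists below are to be read against these shares. List sizes count genes with a probe unless stated, whereas the shares are over genes tested. A member under the 10 CPM minimum could not be called in either direction.

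The collagens were higher than in neural tissue as a group. Of 21 collagen genes with a probe, 20 were at least 2-fold higher than in the neural spots, where 17.7% of all genes tested were. Against the epithelial tumor of section 2, 16 were at least 2-fold higher, where 13.1% were. The 21 include *Col1a1* and *Col3a1*, which the rule used. The other 19 summed to 25842 CPM in the tumor, 569 in the neural spots and 1758 in the epithelial tumor. *Col1a2* (chr6:4505618-4541543 in GRCm38.p6), the partner chain of *Col1a1* in type I collagen, stood at 18144 CPM in the tumor, 197.5 in the neural spots, 134 in the epithelial tumor and 54.8 in the neural spots of section 2. Its log2 ratio to the neural spots was 6.52 (6.48 to 6.57), and single tumor spots ran from 3241 through a median of 17737 to 48616 CPM. The beaded-filament collagen *Col6a2* was 64.7-fold higher than in neural spots (1828 against 28.3 CPM) and the short-chain collagen *Col8a1* 69.6-fold (663 against 9.53 CPM). *Col5a1* and *Col12a1*, which regulate or decorate type I fibrils, stood at 745 and 812 CPM against 14.7 and 14.6. The basement membrane chains *Col4a1* and *Col4a2* differed less: they were 3.65-fold and 3.96-fold higher than in neural spots, and their log2 ratios to the epithelial tumor were -0.83 and -0.21.

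*Col1a1* itself, which the rule used, stood at 252 CPM in the neural spots of section 1 and at 31.3 in those of section 2. What part tumor-derived molecules play in the neural counts of section 1 was not tested. With the neural spots restricted to the 1879 that lay at least 5 grid steps from any tumor spot, 407 of the 411 named genes past 2-fold stayed past it, and none changed direction. These genes were already past 2-fold and most neural spots were kept, so this does not measure that part.

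The enzymes and chaperones that process collagen were higher as well. Of 23 such genes, 19 were at least 2-fold higher than in the neural spots and 12 higher and 2 lower than in the epithelial tumor. *Pcolce*, an enhancer of procollagen C-proteinase, stood at 893 CPM against 19.2 and 37.8, a log2 ratio of 5.54 (5.39 to 5.70) to the neural spots. *Serpinh1*, the collagen chaperone HSP47, stood at 1256 CPM against 45.8 and 258. *Lox* and *Loxl1*, which cross-link collagen and elastin, were 16.5-fold and 20.5-fold higher than in neural spots. The lysyl oxidase *Loxl2* and the prolyl hydroxylase *P4ha2* were the 2 that were lower than in the epithelial tumor, at 17 against 93.3 CPM and 70.1 against 344 CPM. Secretory pathway genes differed less: 11 of 17 were at least 2-fold higher than in neural spots, where 17.7% of all genes tested were. Against the epithelial tumor 2 were higher, near the 13.1% of all genes tested. Those 2 were *Creb3l1*, a transcription factor of collagen-secreting cells, at 186 against 10.9 CPM, and *Sec24d*, a coat protein of vesicles that carry procollagen, at 26.0 against 8.19 CPM.

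Among 29 other matrix genes, 24 were at least 2-fold higher than in neural spots. *Postn*, which encodes the matricellular protein periostin, had the largest fold of all genes with at least 50 CPM, at 1235 CPM against 10.2 and a log2 ratio of 6.92 (6.71 to 7.13). The proteoglycan genes *Lum* and *Dcn* stood at 1801 and 1321 CPM against 18.2 and 31.2. *Fn1*, the gene for fibronectin, stood at 6807 CPM against 207 in neural spots and 2617 in the epithelial tumor. Against the epithelial tumor this list split: 21 members were higher and 4 lower. *Thbs2* and *Thbs1*, which encode related thrombospondins, went opposite ways, with log2 ratios of 6.39 (6.28 to 6.51) and -4.32 (-4.35 to -4.29). The others that were lower were *Tnc*, *Ccn1* and *Ccn2*, and *Ccn2*, the gene for connective tissue growth factor, stood at 49.4 CPM against 1138.

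Of 24 genes for matrix proteases and their inhibitors, 15 were at least 2-fold higher than in neural spots, and 12 were higher and 5 lower than in the epithelial tumor. The collagenase gene *Mmp13* stood at 428 CPM against 6.09, a log2 ratio of 6.14 (5.87 to 6.41). The gelatinase gene *Mmp2* stood at 829 CPM against 17.7, the membrane protease gene *Mmp14* at 1682.5 against 43.4 and *Ctsk*, which encodes the collagen-degrading cathepsin K, at 520 against 12.9. All 3 were also higher than in the epithelial tumor, by 56.5-fold, 3.57-fold and 55.0-fold. Of the inhibitors, *Timp2* was 2.24-fold higher than in the epithelial tumor, and *Timp3* was 4.28-fold lower.

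**Figure D2:**
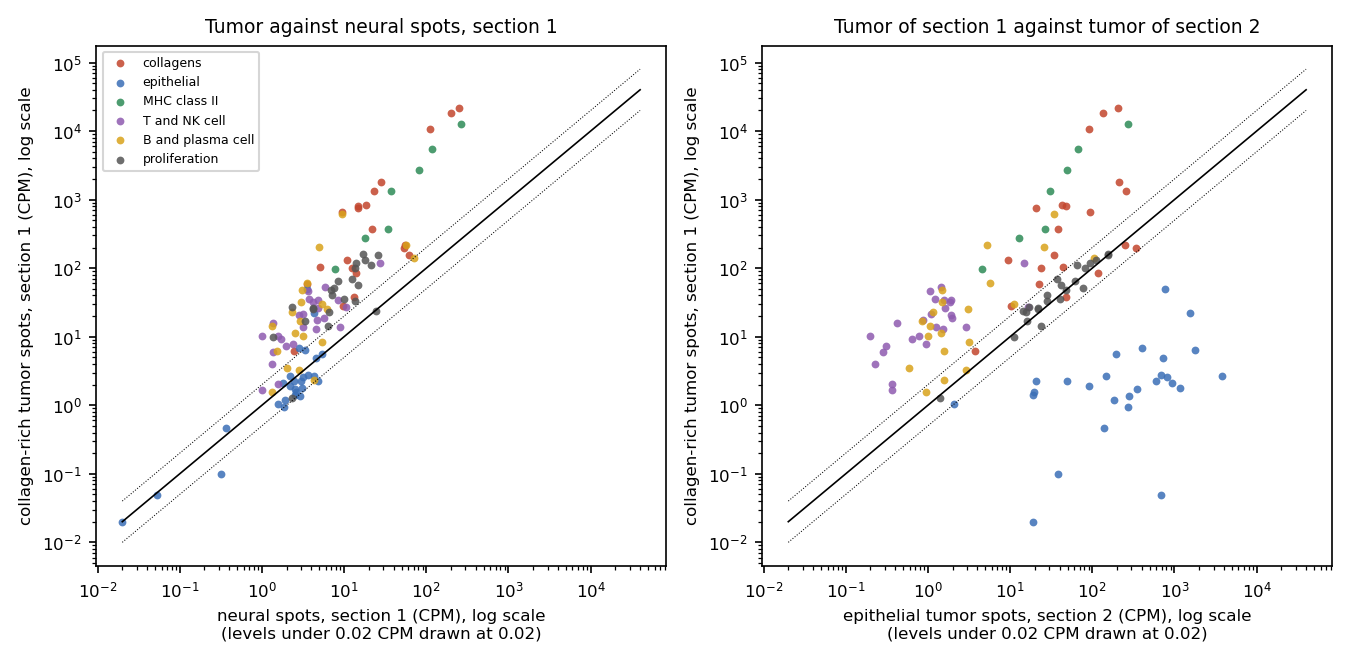
Each point is a gene of 6 lists, with its CPM of summed UMIs in the collagen-rich tumor (y axis, log scale) against the neural spots of section 1 (left) or the epithelial tumor of section 2 (right), values under 0.02 CPM drawn at 0.02, the solid line at equal levels and the dotted lines at 2-fold. *Col1a2* stands at 18144 CPM in the collagen-rich tumor and at 134 CPM in the epithelial tumor. *Krt7*, one of the genes that chose the epithelial spots, stands at 2.67 and 3787 CPM.

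Fibroblast marker genes were higher than in both references. Of 19 with a probe, 14 were at least 2-fold higher and 2 lower than in neural spots, and 13 were higher and 1 lower than in the epithelial tumor. The summed level of the list was 7133 CPM in the tumor, with single spots from 1232 to 14051, against 935 in the neural spots, 494 in the epithelial tumor and 834 in the neural spots of section 2. The receptor genes *Pdgfra* and *Pdgfrb* stood at 163 and 256 CPM against 9.26 and 39.0 in the epithelial tumor. *Dpt*, which encodes dermatopontin, a marker of widespread tissue fibroblasts, stood at 431 CPM against 1.41, a log2 ratio of 8.26 (7.86 to 8.69). *Lrrc15* and *Fap*, both known from activated fibroblasts of tumors, stood at 129.6 and 46.6 CPM against 1.38 and 4.81. The adventitial fibroblast markers *Pi16* and *Clec3b* were low, at 1.41 and 5.85 CPM. *Thy1* was lower than in neural spots, at 113 against 591 CPM, and neurons express this gene too.

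*Crabp1*, which encodes a cytosolic carrier of retinoic acid (chr9:54764748-54773110 in GRCm38.p6), separated the tumors of the sections more than any other gene that was higher in section 1. It stood at 1028.5 CPM in the collagen-rich tumor and 8.78 in the neural spots of section 1, and at 0.409 CPM in the neural spots of section 2, while the whole epithelial tumor held 1 UMI. Its log2 ratio to the neural spots was 6.87 (6.65 to 7.10) and its ratio to the epithelial tumor had a counting interval of 12.68 to 20.46. After every spot was thinned to 2000 UMIs, 78.2% of the collagen-rich spots, 1.76% of the neural spots and 0 of 847 epithelial spots held a *Crabp1* UMI. Without thinning the share was 98.5% of the collagen-rich spots.

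Smooth muscle and contractile genes, which mark myofibroblasts and mural cells, were less distinct. Of 13, 6 were at least 2-fold higher than in neural spots, 0 were higher than in the epithelial tumor and 3 were lower than there. *Acta2*, the gene for smooth muscle actin, stood at 97.7 CPM against 10.4 in neural spots and 59.7 in the epithelial tumor, and single spots ran from 0 to 1347 CPM with a median of 37.4. *Myh11*, specific to mature smooth muscle, was at 1.55 CPM.

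The label breast tumor was checked against the markers of epithelium, and these were absent or nearly so. Of 27 epithelial genes with a probe, only *Krt8* and *Pkp1* reached the 10 CPM minimum in the collagen-rich tumor or its neural spots, and both were at least 2-fold higher than in neural spots. Against the epithelial tumor of section 2, 26 of the 27 were at least 2-fold lower, where 15.3% of all genes tested were. *Muc1*, at 1.04 and 2.08 CPM, was too low in both to be tested. Apart from *Krt8* and *Pkp1*, the 26 passed the 10 CPM minimum only through the epithelial tumor. Their direction was thus fixed in advance, and the count is description only. Low *Epcam*, *Krt7* and *Krt8* relative to the epithelial tumor follow in part from how its spots were chosen. The other markers do not enter that rule but mark the same tissue. The adhesion gene *Cdh1* stood at 6.74 CPM against 399, a log2 ratio of -5.89 (-6.07 to -5.72), and at 2.80 CPM in the neural spots. The basal keratin gene *Krt14* stood at 2.1 against 924 CPM and the claudin gene *Cldn7* at 1.78 against 1166.5 CPM. *Krt17* had 2 UMIs in the whole collagen-rich tumor and 693 CPM in the epithelial one, a counting interval of -16.82 to -11.92 on the log2 scale. *Krt15* had 0 UMIs there and was at least 256-fold lower than in the epithelial tumor.

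Single spots gave the same picture for *Epcam*, *Krt7* and *Krt8*. Their sum reached 142 CPM in the highest collagen-rich spot and had a median of 26.3, whereas the lowest spot of the epithelial tumor, which these genes define, stood at 2014 CPM. With all spots thinned to 2000 UMIs, 1.46% of collagen-rich spots (exact 95% interval 0.731% to 2.60%) and 0.604% of neural spots (0.313% to 1.05%) held an *Epcam* UMI, against 95.2% in the epithelial tumor. Median depths before thinning were 54613.5, 8309.5 and 41206 UMIs. The area is therefore named here by its collagens and not as epithelium.

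Genes of the mammary lineage and of milk were mixed. Of 19, 7 reached the 10 CPM minimum against neural spots. Of these 7, 3 were at least 2-fold higher and 4 lower, where 17.7% and 26.9% of all genes tested were. Against the epithelial tumor 12 reached it, and 1 was higher and 10 lower, where 13.1% and 15.3% of all genes tested were. The 3 that were higher than in neural spots were *Gata3*, *Trps1* and *Esr1*, transcription factors of luminal breast epithelium that other cells express too. They stood at 51.6, 269.7 and 30.7 CPM against 10.4, 56.7 and 9.05 in neural spots. *Ltf*, which encodes the milk and granule protein lactoferrin, stood at 2.81 CPM against 658 in the epithelial tumor.

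Of 10 regulators and markers of EMT, 6 were at least 2-fold higher than in neural spots and 7 were higher than in the epithelial tumor. The repressor *Snai1* stood at 98.3 CPM against 6.67 and 22.8, and *Twist1* at 62.7 against 4.82 and 15.9. *Snai2* was also higher than in neural spots, at 50.5 against 5.08 CPM, but stood at 50.1 CPM in the epithelial tumor, a log2 ratio of 0.01 (-0.08 to 0.10). The mesenchymal cadherin *Cdh11* stood at 415 CPM against 33.5 and 15.6, and the intermediate filament *Vim* at 4219 against 521 and 1138. *Cdh2*, the neural cadherin, was lower than in neural spots, at 29.4 against 65.5 CPM. All of these genes are also expressed by fibroblasts, and which cells of a spot carried them cannot be told apart.

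Transcripts of the mouse genes for the receptors HER2 and HER3 were lower than in the epithelial tumor. *Erbb2*, the mouse counterpart of HER2, stood at 16 CPM in the collagen-rich tumor, 5.66 in the neural spots and 49.5 in the epithelial tumor, log2 ratios of 1.5 (1.20 to 1.81) and -1.63 (-1.76 to -1.50). The probes target mouse transcripts, and whether they read the human HER2 transgene was not given in the sources used here. The level of HER2 from the transgene is therefore not known. *Erbb3*, the partner receptor of HER2, stood at 3.26 CPM against 20.1 and 117, and *Erbb4* at 1.85 against 37.4 and 2.82. *Egfr* was higher than in neural spots, at 45.1 CPM against 14.4 and 26.4. Among the 12 receptors and ligands, 7 reached the 10 CPM minimum against neural spots. Of these 7, 2 were at least 2-fold higher and 4 lower, where 17.7% and 26.9% of all genes tested were. Against the epithelial tumor 8 reached it, and 1 was higher and 6 lower, where 13.1% and 15.3% were. *Pik3ca* stood at 114, 91.7 and 116 CPM in the collagen-rich tumor, the neural spots and the epithelial tumor, with no 2-fold difference. Of 16 genes of the PI3K and AKT pathway, 15 were tested, and 2 were higher and 4 lower than in neural spots, near the shares of all genes tested. These counts do not separate the mutant from the normal allele.

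Of 17 genes of transforming growth factor beta (TGF-beta) signaling, which drives collagen production in fibroblasts, 10 were at least 2-fold higher than in neural spots and 1 lower. The ligand gene *Tgfb2* stood at 143 CPM against 15.8 and 16.9, while *Tgfb1* was at 289 against 57.2 and 201 CPM. *Ltbp1*, which holds latent TGF-beta in the matrix, was 33.5-fold higher than in neural spots and stood at 174 and 183 CPM in the tumors of the sections. Relative to the epithelial tumor, 5 of the list were higher and 3 lower, where 13.1% and 15.3% of all genes tested were. The median log2 ratio was -0.07. Of 16 integrins and collagen receptors 15 were tested. Of these, 9 were at least 2-fold higher and 2 lower than in neural spots, where 17.7% and 26.9% of all genes tested were. Against the epithelial tumor 5 were higher and 3 lower, the latter near the share of all genes tested (13.1% and 15.3%). *Itga11* and *Ddr2*, receptors for fibrillar collagen on mesenchymal cells, stood at 92.6 and 87.9 CPM against 4.62 and 7.21, and *Ddr1* and *Itga3*, which epithelia express, at 49.6 and 40.3 against 205 and 327.

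Cell cycle genes were higher than in neural tissue and close to the level of the epithelial tumor. Of 23 proliferation genes, 20 were at least 2-fold higher than in neural spots, with a median log2 ratio of 2.59, and 0 were past 2-fold in either direction against the epithelial tumor. *Mki67* stood at 161 CPM against 16.9 in neural spots and 154 in the epithelial tumor, where its log2 ratio was 0.06 (0.01 to 0.11). With spots thinned to 2000 UMIs, 26.9% of the collagen-rich spots (23.8% to 30.2%), 24.0% of the epithelial spots (21.1% to 27.0%) and 2.42% of the neural spots held an *Mki67* UMI. Of 20 genes of p53 and cell cycle control, 2 were at least 2-fold higher and 3 lower than in the epithelial tumor, shares near those of all genes tested. Of these 5, *Cdkn2a*, the locus of p16 and p19Arf, stood at 4.91 CPM against 577 in the epithelial tumor, a log2 ratio of -6.88 (-7.09 to -6.68), and *Trp53* at 108 against 17, a log2 ratio of 2.67 (2.55 to 2.80). *Cdkn1a*, a target of p53, stood at 92.9, 121 and 73.3 CPM in the collagen-rich tumor, the neural spots and the epithelial tumor. *Myc* was higher than in neural spots, at 56.8 against 16 CPM, and lower than in the epithelial tumor, at 209. The others past 2-fold there were the cell cycle inhibitor genes *Cdkn2b*, at 30.1 against 219 CPM, and *Cdkn2c*, at 124 against 31.3.

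**Figure D3:**
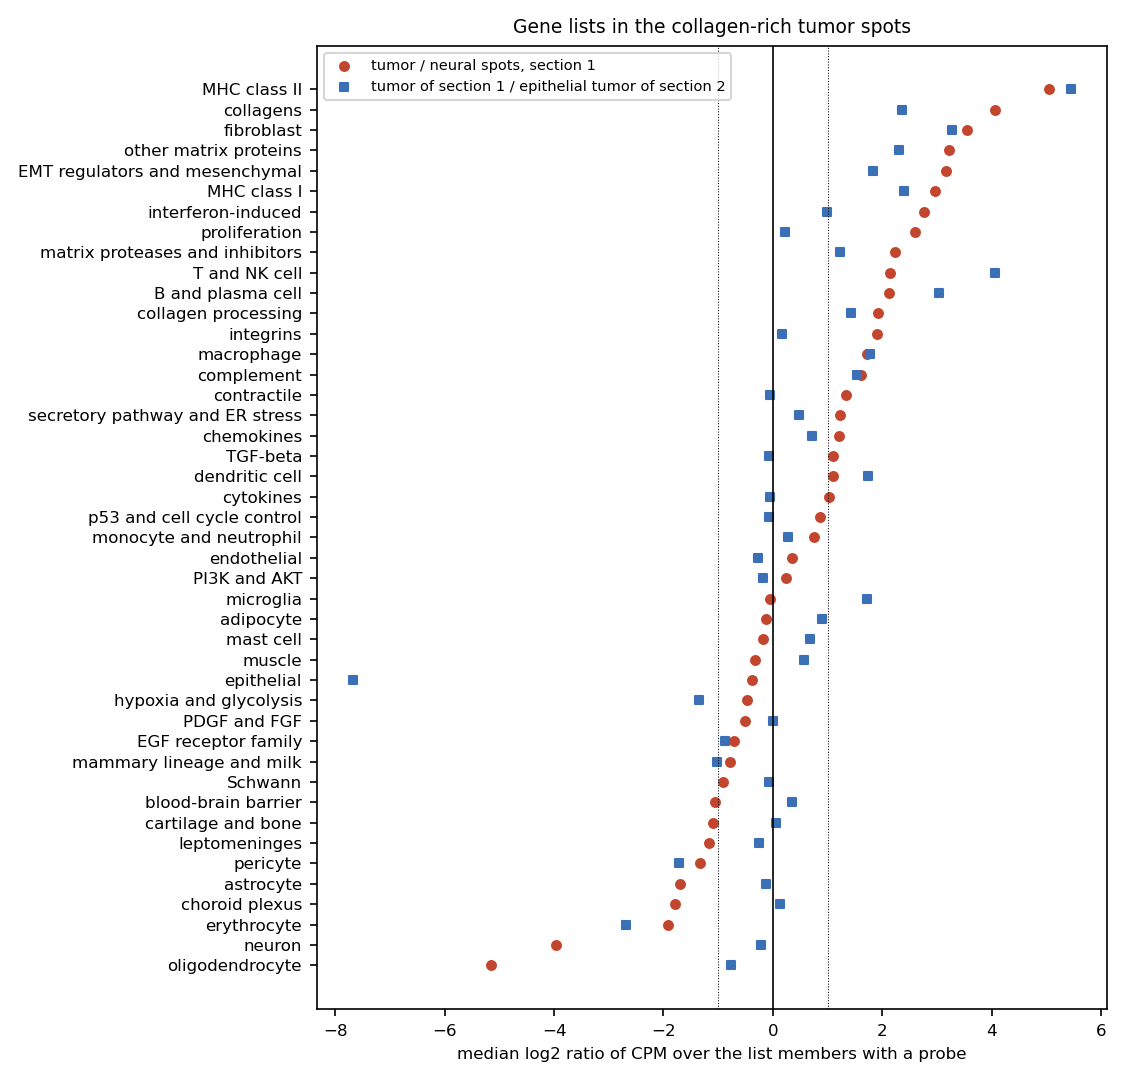
Median log2 ratio of each gene list in the collagen-rich tumor over the neural spots of section 1 and over the epithelial tumor of section 2, over the members with a probe, with dotted lines at 2-fold. The epithelial list has a median of -7.68 against the epithelial tumor, and the MHC class II list has medians of 5.05 and 5.45.

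MHC class II genes were the immune group that stood furthest above both references. All 7 with a probe were at least 2-fold higher in both comparisons, with median log2 ratios of 5.05 and 5.45. *Cd74*, the invariant chain that guards the peptide groove, stood at 12648 CPM against 268 in neural spots and 274 in the epithelial tumor, and single spots ran from 729 through a median of 14414 to 33818 CPM. *H2-Aa*, the alpha chain of I-A, stood at 5549.6 CPM against 118 and 67.0, a log2 ratio of 5.56 (5.50 to 5.62) to the neural spots. The beta chain genes *H2-Ab1* and *H2-Eb1* were 33.2-fold and 35.7-fold higher than in neural spots. *H2-DMa* and *H2-DMb1*, which encode the peptide exchanger, stood at 367 and 278 CPM against 34.2 and 17.9, and *Ciita*, the transactivator of the class II genes, at 96.5 against 7.67 and 4.51. The summed level of the 7 was 22993 CPM in the tumor, and no spot was below 1767 CPM, against 565 CPM over the neural spots and 465 over the epithelial tumor.

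Class II genes are regulated together, through promoters that share an X box and a Y box, where a complex assembles that CIITA joins. The RefSeq promoter windows, 250 bases before to 50 after the start site in GRCm38.p6, held 4 of the 7 genes, and those of *H2-Aa* (chr17:34287774-34288073, minus strand) and *H2-Eb1* (chr17:34305617-34305916, plus strand) are shown because they carry both elements, in capitals, first the X1 letters CTNGCAAC and then the Y letters CTGATTGG, 5′ to 3′.
H2-Aa: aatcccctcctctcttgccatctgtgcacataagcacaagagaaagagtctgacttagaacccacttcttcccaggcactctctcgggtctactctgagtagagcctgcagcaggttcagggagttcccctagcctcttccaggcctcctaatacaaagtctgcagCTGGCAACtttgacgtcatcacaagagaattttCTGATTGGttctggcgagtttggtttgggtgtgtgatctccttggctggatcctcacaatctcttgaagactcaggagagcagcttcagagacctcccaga
H2-Eb1: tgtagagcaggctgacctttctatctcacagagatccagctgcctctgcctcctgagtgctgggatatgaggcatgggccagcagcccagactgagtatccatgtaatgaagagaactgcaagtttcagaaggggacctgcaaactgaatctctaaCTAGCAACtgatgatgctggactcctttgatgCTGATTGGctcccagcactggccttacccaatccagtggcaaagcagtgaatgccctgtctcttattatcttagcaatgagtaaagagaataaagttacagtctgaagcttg
The X1 letters begin 84 and 94 bases before the start site and the Y letters 51 and 62 bases before it. Both motifs were searched on both strands, and they do not overlap. The letters were read from these promoters, so their presence there is no result. Over all 32841 promoter windows of the same length, 3.43% held the X1 letters, 4.1% the Y letters and 0.18% both. The windows of *H2-DMa* and *H2-DMb1* held neither run of letters.

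MHC class I and interferon-induced genes were also higher. All 10 class I genes, among them *B2m*, the light chain, at 7688 CPM against 985 and 1465, and the immunoproteasome subunit gene *Psmb8*, at 868 against 76.5 and 132, were at least 2-fold higher in both comparisons. All 20 interferon-induced genes with a probe were at least 2-fold higher than in neural spots, but only 10 were higher than in the epithelial tumor and 1 was lower. Members differed: *Cxcl9*, *Gbp4* and *Gbp5*, strongly induced by interferon-gamma, stood at 261, 171 and 121 CPM against 1.49, 5.88 and 5.80 in the epithelial tumor. *Ifit1*, *Oasl2* and *Usp18*, induced mainly by type I interferon, stood at 52.2, 292 and 69.8 CPM against 59.6, 376 and 129, and *Rsad2* was the gene that was lower. *Ifng* itself was at 3.97 CPM against 1.32 and 0.225, under the 10 CPM minimum.

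Of 15 chemokine genes, 9 were at least 2-fold higher than in neural spots, and 6 were higher and 3 lower than in the epithelial tumor. *Cxcl9*, a ligand of the T cell receptor CXCR3, had a log2 ratio of 6.46 (6.08 to 6.87) to the neural spots, and 35.3% of thinned collagen-rich spots, 0.504% of neural spots and 0.708% of epithelial spots held a UMI of it. *Ccl8* and *Ccl5*, which attract monocytes and T cells, stood at 587 and 416 CPM against 20.5 and 28.7. *Cxcl12* and *Cxcl13*, made by stromal cells of lymphoid tissue among others, stood at 262 and 143 CPM against 9.04 and 0.760 in the epithelial tumor. *Cxcl1*, a neutrophil attractant, was at 4.69 CPM in the collagen-rich tumor and 72.3 in the epithelial tumor. Among the cytokines, *Il33* stood at 587 CPM against 164 and 20.4. *Il34* and *Csf1*, the ligands of the macrophage receptor CSF1R, stood at 66.0 and 44.4 CPM against 26.4 and 18.3 in neural spots, and *Il34* was at 63.1 CPM in the epithelial tumor.

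T cell genes were low in CPM but well above both references. Of 26 T cell and natural killer cell genes, 18 were at least 2-fold higher in each comparison and 0 were lower in either. *Cd3e*, a chain of the T cell receptor complex, stood at 53.2 CPM against 5.87 and 1.44, log2 ratios of 3.18 (2.90 to 3.47) and 5.21 (4.81 to 5.64), and 9.42% of thinned collagen-rich spots, 1.16% of neural spots and 0.590% of epithelial spots held a UMI of it. *Cd4* and *Cd8a* stood at 31.9 and 20.9 CPM against 4.13 and 2.80 in neural spots. The checkpoint genes *Ctla4*, *Pdcd1* and *Havcr2* stood at 34.9, 33.8 and 118 CPM against 1.21, 1.89 and 14.9 in the epithelial tumor. *Havcr2* is expressed by macrophages as well. *Foxp3*, of regulatory T cells, was at 12.8 CPM against 4.55 in neural spots. Its thinned shares of 1.46% (0.731% to 2.60%) and 0.856% (0.499% to 1.37%) in these 2 regions overlapped. The natural killer genes *Ncr1* and *Klrb1c* stayed under the 10 CPM minimum, at 2.07 and 1.65 CPM.

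Of 20 B cell and plasma cell genes, 13 were at least 2-fold higher in each comparison. The immunoglobulin genes carried most of these UMIs: *Igkc*, the kappa light chain, stood at 622 CPM against 9.47 and 34.3, with a log2 ratio of 6.04 (5.82 to 6.26) to the neural spots, and single spots ran from 0 through a median of 169 to 8774 CPM. *Ighm* and *Igha*, the heavy chains of IgM and IgA, stood at 221 and 205 CPM, and their highest spots at 6354 and 4875. The B cell receptor gene *Cd79a* stood at 23.2 CPM against 2.33 and 1.15. Probes for immunoglobulin chains can share sequence between family members, so the split among chains is uncertain.

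Macrophage genes were higher by a moderate fold. Of 21, 18 were at least 2-fold higher than in neural spots, with a median log2 ratio of 1.71, and 17 were higher and 1 lower than in the epithelial tumor. *C1qa*, the complement component of resident and tumor macrophages, stood at 2355 CPM against 725 and 555, and *Csf1r* at 397 against 121 and 111. *Ms4a7*, a marker of macrophages other than microglia, had the largest ratio to neural spots in the list, at 310.1 CPM against 13.6. *Arg1*, which encodes arginase 1, was the member that was lower than in the epithelial tumor, at 143 CPM against 422, and stood at 61.2 CPM in neural spots. Of 10 microglial genes 8 reached the 10 CPM minimum against neural spots, and 1 was at least 2-fold higher, 2 lower and 5 neither. *Tmem119* stood at 115 CPM against 25.8, and *P2ry12* and *Sall1* at 31.8 and 5.31 CPM against 51.4 and 28.4. Against the epithelial tumor 6 reached the minimum and all 6 were at least 2-fold higher, where 13.1% of all genes tested were. Of 11 monocyte and neutrophil genes 4 reached the 10 CPM minimum against neural spots and all 4 were at least 2-fold higher: the monocyte receptor gene *Ccr2* at 117 CPM against 13.2, *Plac8* at 46.4 against 19.8, *Csf3r*, the receptor of granulocyte colony-stimulating factor, at 45.7 against 22.4 and *S100a8* at 11.7 against 4.29. The other 7, among them the neutrophil granule genes *Camp*, *Ngp* and *Mpo*, were below it. Against the epithelial tumor 3 of the list were higher and 1 was lower, *S100a9*, at 7.11 against 25.1 CPM.

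Vessel genes did not follow the collagens. Of 15 endothelial genes, 2 were at least 2-fold higher than in neural spots, near the 17.7% of all genes tested. These were *Plvap*, of fenestrated vessels, at 20.2 CPM against 3.02 and *Aplnr* at 21.7 against 5.29. *Pecam1* and *Cdh5* stood at 32.6 and 54.2 CPM against 23.6 and 27.9. Genes of the blood-brain barrier were lower, 6 of 11 by at least 2-fold, where 26.9% of all genes tested were. The lipid transporter gene *Mfsd2a* stood at 3.55 CPM against 63.8 and *Slco1a4* at 6.86 against 86.7, while the tight junction gene *Cldn5* stood at 98.4 against 72.3. Pericyte genes were lower in both comparisons, 6 of 7 against neural spots and 5 against the epithelial tumor, with *Rgs5* at 24.5 CPM against 68.6 and 46.7. Genes of the response to low oxygen were not high: 1 of 15 was at least 2-fold higher and 2 lower than in neural spots, and 10 were lower than in the epithelial tumor, with *Vegfa* at 51.2 CPM against 93.5 and 247.

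Markers of other tissues that make collagen were checked. Of 13 leptomeningeal genes 7 reached the 10 CPM minimum. Of these 7, 2 were at least 2-fold higher and 5 lower than in neural spots, where 17.7% and 26.9% of all genes tested were. Members went both ways, with log2 ratios from -4.76 to 4.50. Among the lower ones, *Ptgds* and *Slc22a8* stood at 18.6 and 1.65 CPM against 504 and 18.3. They are examples and do not stand for the members that were higher. Another member, *Crabp2*, stood at 126 CPM in tumor spots 1 to 4 grid steps from neural spots and at 27.6 CPM at 17 to 24 steps. The whole list summed to 189.6 and 134.1 CPM in these bands, so *Crabp2* made up much of it in the nearest band. Of 11 cartilage and bone genes 7 were tested, and 2 were higher and 4 lower, with *Runx2* at 56.0 CPM against 7.25 and *Acan* and *Sp7* at 11 and 1.09. The 9 muscle, 7 adipocyte and 6 mast cell genes summed to 20.2, 20.1 and 7.87 CPM and none of them passed the minimum. The choroid plexus gene *Ttr* stood at 3.55 CPM against 506, whereas the water channel gene *Aqp1*, which the choroid plexus shares with other cells, stood at 579.6 against 10.1 and 10.7.

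Neural genes were low. All 19 neuronal genes with a probe and all 10 oligodendrocyte genes were at least 2-fold lower than in the neural spots, which *Snap25* and *Mbp* had helped to choose. Neurofilament *Nefl* stood at 9.53 CPM against 1494. Of 10 astrocyte genes 7 were at least 2-fold lower. The other 3 were *Gja1*, at 272 CPM against 487, *Sox9*, at 89.4 against 86.6, and *Gfap*, at 979 CPM against 1467.5, with single tumor spots from 0 to 10762, while the astrocyte genes *Slc1a2* and *Aldoc* stood at 53.9 and 117 CPM against 1098 and 2203.

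Members differed among themselves by where they lay. The distance of a spot to the nearest neural spot ran from 1 to 24 steps of the hexagonal grid, and the far zone (276 spots at 13 steps or more, 13834367 UMIs) was set against the near zone (272 spots at 7 steps or fewer, 13905712 UMIs). Of 10703 genes with at least 10 CPM in either zone, 275 (2.57%) were at least 2-fold higher and 601 (5.62%) at least 2-fold lower in the far zone. Of 21 collagens 2 were higher and 4 lower in the far zone. *Col8a2* and *Col14a1* were the 2 that were higher, *Col8a2* at 5.75 CPM near and 62.7 far, and *Col6a3*, at 1166 and 568, was among the 4 that were lower, while *Col1a2* stood at 18286 CPM near and 18666 far. Proliferation genes differed little, with 0 of 23 past 2-fold in either direction and *Mki67* at 148 and 165 CPM.

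Some macrophage, protease and contractile genes were higher in the near zone. *Gpnmb*, a lysosomal membrane protein of lipid-laden macrophages, stood at 1204 CPM near and 15.2 CPM far, a log2 ratio of far to near of -6.31 (-6.51 to -6.11). *Arg1* stood at 388 CPM near and 6.58 far, a log2 ratio of -5.88 (-6.20 to -5.58), and the macrophage elastase gene *Mmp12* at 143 and 3.83 CPM. The heme oxygenase gene *Hmox1* was 10.4-fold and the lipid carrier gene *Fabp5* 12.4-fold lower in the far zone. Of 21 macrophage genes 6 were at least 2-fold lower and 2 higher in the far zone, where 5.62% and 2.57% of all genes tested were. The 2 that were higher were *Csf1r*, at 247 CPM near and 524 far, and the mannose receptor gene *Mrc1*, at 33.7 and 246, while *C1qa* stood at 2097 and 2458.

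Of 24 protease and inhibitor genes 11 were at least 2-fold lower in the far zone and 1 higher. *Mmp13* stood at 726 CPM near and 113 far, and *Mmp3*, the stromelysin gene that was higher, at 456 and 1167. Of 13 contractile genes 5 were at least 2-fold lower in the far zone and 1 higher, the myosin kinase gene *Mylk*, at 24.7 CPM near and 64.5 far. *Acta2* was at 221 CPM near and 12.8 far, and *Tagln*, another actin-binding gene of myofibroblasts, at 41.3 and 2.89. *Lrrc15* and *Tnc* followed it, at 192 and 935 CPM near against 55.2 and 241 far. Genes of the response to low oxygen were lower there too, 6 of 15 by at least 2-fold, with the lactate exporter gene *Slc16a3* at 66.5 CPM near and 10.4 far.

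In the far zone some fibroblast genes and most B and plasma cell genes were higher. Of 19 fibroblast genes 5 were at least 2-fold higher far than near and 2 lower, *Lrrc15* and *Pdpn*, with a median log2 ratio of 0.21 over the list. *Cilp*, which encodes cartilage intermediate layer protein (chr9:65265180-65280614 in GRCm38.p6), had the largest ratio, at 5.11 CPM near and 415 far, a log2 ratio of 6.35 (6.01 to 6.71). *Dcn*, *Dpt* and *Col14a1* stood at 568, 175 and 17.3 CPM near and 2385, 765 and 134 far. *Crabp1* was 2.66-fold higher far than near. Of the 20 B and plasma cell genes 13 were at least 2-fold higher in the far zone and 0 lower, with *Igkc* at 76.3 and 1370.1 CPM, *Cd79a* at 5.11 and 42.8 and *Cxcl13*, the attractant of B cells, at 10.3 and 301. Of the 26 T cell and natural killer cell genes 19 reached the minimum in either zone and 0 were past 2-fold. In finer bands of grid steps the summed level of this list was 386 CPM at 1 to 4 steps and 704 at 9 to 12, with *Cd3e* at 23.8 and 64.9 CPM and *Cd4* at 10.3 and 42.1. Of the MHC class II genes 3 of 7 were higher far than near, with *Cd74* at 7061 and 15980 CPM.

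Neural RNA differed with distance as well. Of 19 neuronal genes 10, of 10 oligodendrocyte genes 6 and of 10 astrocyte genes 6 were at least 2-fold lower in the far zone, and *Mbp* stood at 506 CPM near and 36.1 far. The part of neural RNA in the other differences between near and far spots was not tested. *Gfap* stood at 1247 CPM near and 366 far. Some endothelial genes were lower in the far zone as well, 6 of 15 by at least 2-fold, with *Vwf* at 65.8 and 19.6 CPM, while 1 was higher. *Plvap* stood at 16.1 CPM at 1 to 4 grid steps and 56.2 at 17 to 24.

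Over 5 bands of distance the lists took different courses. MHC class II genes summed to 6541 CPM in the 120 spots at 1 to 4 steps, 18107 at 5 to 8, 28513 at 9 to 12, 29345 at 13 to 16 and 28440.1 at 17 to 24 steps. From the third band on they differed little. The summed level of the fibroblast list was higher in each further band, from 3749 through 5838, 7187 and 8825 to 9984 CPM, and that of the B and plasma cell list from 300.1 through 524, 1314 and 2657 to 3077 CPM. Macrophage genes summed to 16791, 17135, 15076, 12342 and 10610.1 CPM and hypoxia genes to 3217, 1999.8, 1716, 1588 and 1408 CPM. In the macrophage sum *Apoe* alone stood at 5473, 7570.5, 6350, 3998.5 and 3164 CPM. *C1qa* stood at 1930 CPM in the nearest and 2382 in the farthest band and *Mrc1* at 25.8 and 283. The macrophage sum is thus no count of macrophages. The collagens, of which single members went either way, summed to 24503, 27178, 24102, 25679 and 27096 CPM without *Col1a1* and *Col3a1*. The median UMIs per spot in the same bands were 36174, 62517, 62131, 57066 and 44491, so depth was lowest in the nearest and farthest bands.

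**Figure D4:**
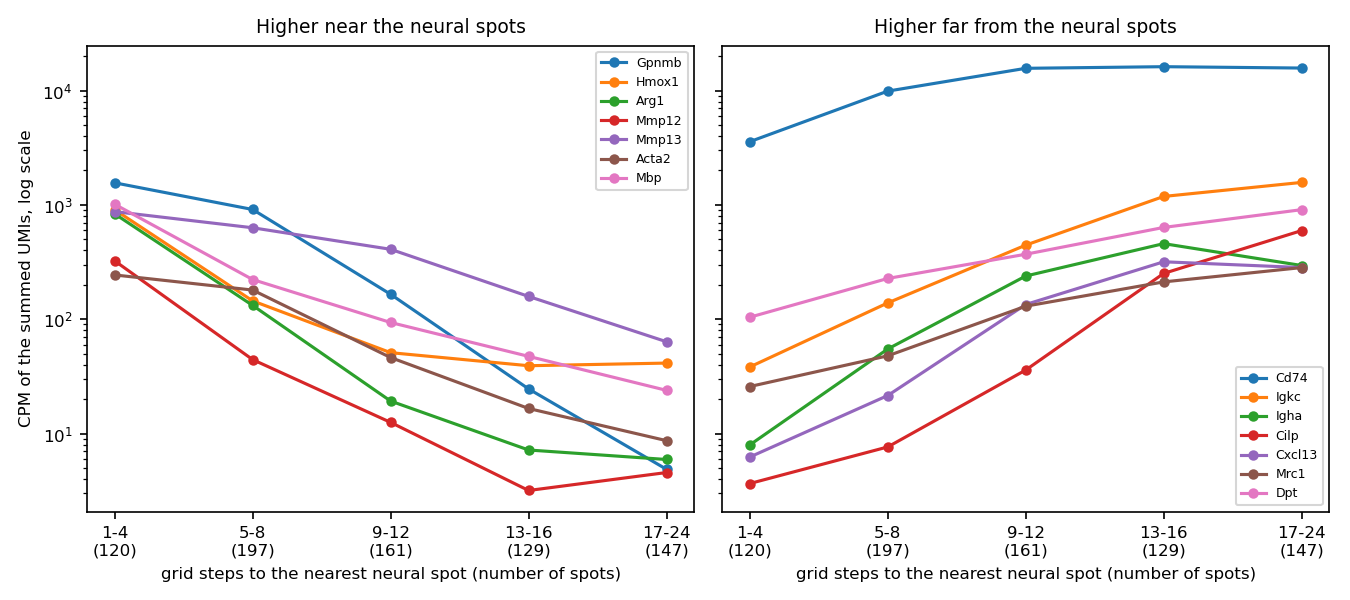
CPM of summed UMIs (log axis) of 7 genes that were higher near the neural spots (left) and 7 that were higher far from them (right), in 5 bands of grid steps to the nearest neural spot with the number of spots in each. *Gpnmb* stands at 1204 CPM in the near and 15.2 CPM in the far zone, and *Cilp* at 5.11 and 415 CPM.

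Across the 754 spots, which share 1 library and differ in depth, the summed level of the fibroblast list had a Pearson correlation of 0.854 with distance and a Spearman correlation of 0.868, MHC class II a Pearson correlation of 0.709, macrophage genes -0.563 and hypoxia genes -0.654. Collagens and collagen processing genes correlated at 0.743 over the same spots. These are descriptions of 1 tumor.

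**Figure D5:**
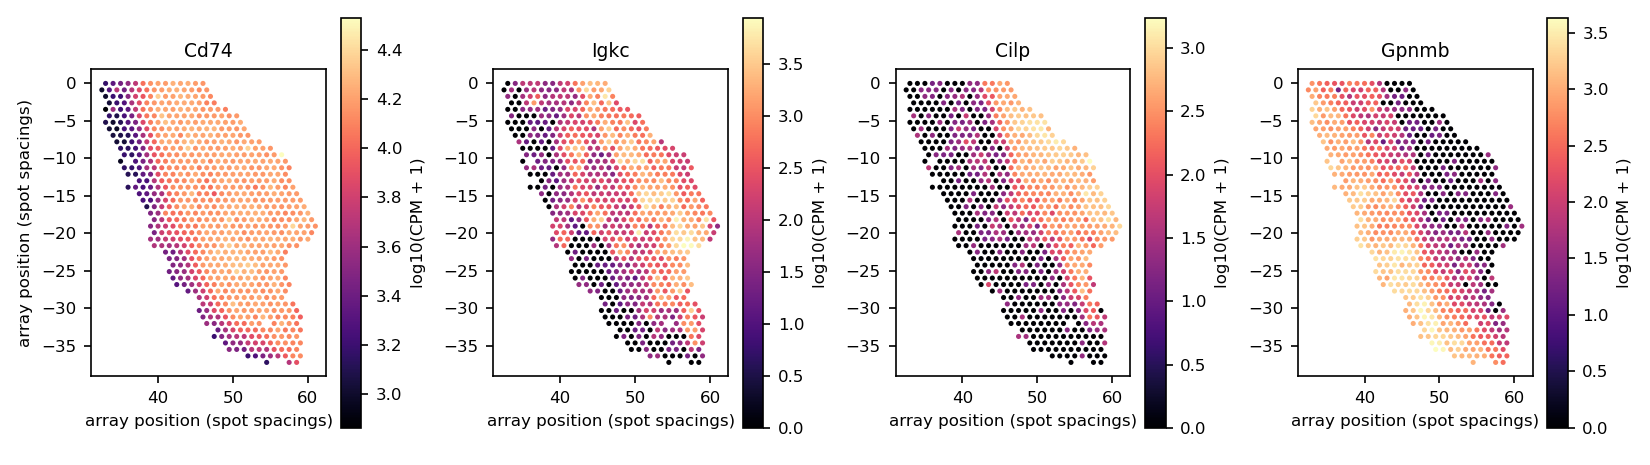
The 754 collagen-rich spots at their array positions in spot spacings, colored by log10(CPM + 1) of *Cd74*, *Igkc*, *Cilp* and *Gpnmb*, each with its own color scale. Neural spots lie to the left and below, where *Gpnmb* is high, and *Cilp* and *Igkc* are high on the opposite side.

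Single genes varied among spots beyond counting error. The dispersion ratio is the squared deviation of a gene's spot counts from those expected at each spot's depth over what counting error alone gives. At an equal relative spread it is larger for genes with more UMIs, so it does not rank genes by relative spread. Among genes with at least 100 CPM it was highest for *Col1a1*, which the rule used, *Cd74* and *Col1a2*, at 162, 116 and 95.5. *Igfbp5*, *Igkc*, *Apoe* and *Gfap* followed, at 94, 92.6, 89.0 and 86.7. Neighboring spots were alike in these genes: the correlation of a spot with the mean of its neighbors was 0.97 for *Igfbp5*, an insulin-like growth factor binding protein, and 0.96 for *Cd74*. It was lower for *Igha*, at 0.54, whose UMIs lay in few spots.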

How the data were processed

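Transcripts of 2 formalin-fixed sections were read with the Visium CytAssist assay, in which probe pairs against mouse genes are captured on barcoded spots. The authors made the deposited files with Space Ranger 2.1.1 on mm10, per the labels, and these hold unnormalized counts of UMIs for each gene in each spot, for 19465 genes and 63986887 and 71878333 UMIs under tissue in sections 1 and 2. A deposited table places each spot on the array. A panel of probe pairs measures short stretches of each transcript, so UMIs of different genes do not rank their amounts of transcript. Summed list levels add captured UMIs, and the genes with the most UMIs weigh most in them.

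UMIs were summed over the spots of a region and divided by its total (CPM). The regions held 40516210 (collagen-rich tumor), 18896621 (neural, section 1), 35515168 (epithelial tumor, section 2) and 29327719 UMIs (neural, section 2), so counting error is small except for rare transcripts, and the number of sections limits the precision. Ratios have exact conditional intervals at the 95% level, and a count of 0 takes the floor of 3 counts over the region. Intervals cover counting error alone. A gene was called past 2-fold if it had at least 10 CPM in either region, and with 1 section per group no test over spots was made. For shares of spots with a UMI, each spot was thinned at random to 2000 UMIs, which left out no spot of the 3 regions, and shares have exact binomial intervals. No spot was otherwise filtered and no cell types were estimated.

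Of the 44 gene lists, 24 genes have no probe, among them *Krt18* and *Twist2*. The members, the lists and the comparisons were chosen with earlier results of these data known. Genes are named if they belong to a list, are among the 12 with the largest fold in each direction of a comparison (at least 50 CPM), the 12 with the most UMIs or the 12 with the largest dispersion ratio, or are Hox genes with at least 10 CPM. The code was tested on simulated data with known folds. Alternatives were TMM scaling (edgeR 4.0.16 in R 4.3.3), centring, other minimum levels, a pseudocount of 1 CPM, means over spots, other spot and collagen thresholds, and borders left out. Promoters came from a RefSeq table of GRCm38.p6. The rest used Python 3.11.15, numpy 2.4.6, pandas 2.3.3, scipy 1.17.1 and matplotlib 3.10.9.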

Additional observations from a re-analysis of the deposited data

Results flagged for a closer look

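Given here are 5 named genes whose ratio of tumor to neural spots ran in opposite directions in the sections, with 1 tumor each. They are not all the named genes that did so, and the difference between the sections was not tested. *Kit*, a receptor tyrosine kinase gene of luminal progenitors, had a log2 ratio of -1.10 for the collagen-rich tumor of section 1 and 2.19 for the epithelial tumor of section 2. *P3h3*, a collagen prolyl hydroxylase gene, had 1.93 and -1.45, and *Cthrc1*, a gene of activated fibroblasts, 3.33 and -1.75. The complement gene *C3* had 2.11 and -1.88 and the cytokine gene *Il33* 1.84 and -3.02. *Cthrc1* stood at 38.5 and 55.3 CPM in the neural spots of sections 1 and 2 and at 387 and 16.4 CPM in the tumors, and *Il33* at 164 and 165 against 587 and 20.4.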

How the results depend on the processing

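Centring on the median gene added 0.18 to each log2 ratio to the neural spots and 0.20 to each ratio to the epithelial tumor, and TMM gave a shift of -0.11 between the far and near zones. No named gene past 2-fold changed direction under any setting run. For several settings this was fixed in advance, because the genes were chosen past 2-fold. Scaling shifts were smaller than 2-fold, a pseudocount keeps the sign and a minimum level leaves ratios unchanged. With no minimum level all of these genes stay past 2-fold for the same reason. Of 411 named genes past 2-fold against neural spots, 393 (TMM) to 411 stayed past it in settings other than the 50 CPM minimum, which left 293, with the other 118 below the minimum. Of 329 against the epithelial tumor, 314 (centring) to 329 stayed, or 234 with the 50 CPM minimum. Of 154 between the far and near zones, 149 (TMM) to 154 stayed, or 97 with that minimum and 99 with the tumor split into 2 zones only. A minimum of 50 CPM tested fewer genes and counted 1290 higher and 1818 lower than in neural spots, 743 higher and 1061 lower than in the epithelial tumor, and 130 higher and 204 lower far from the cerebellum. With no minimum level, 3005 genes were higher than in the epithelial tumor, and 1584 were higher and 932 lower in the far zone. With 2 zones only, 154 were higher and 231 lower. In a setting chosen after seeing the data, a collagen limit of 5000 CPM let 1 spot of section 2 pass, or 2 spots with at least 2000 UMIs. The median UMI ratio of 6.57 was 6.48 with tumor spots of at least 10000 UMIs and 6.42 with at least 2000.

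No paired analysis was possible because each group holds 1 section, and for the same reason leaving out a replicate was not possible. Depth limits rare transcripts most, since a count of 1 in the 1986 neural spots was worth 0.0529 CPM, against 0.0247 CPM in the tumor.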

Other observations

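Gene lists not described above are given here by the same counts. Among all genes tested, 17.7% were at least 2-fold higher and 26.9% lower than in neural spots. Against the epithelial tumor the shares were 13.1% and 15.3%. Of 15 platelet-derived and fibroblast growth factor genes 13 were tested, and 6 were at least 2-fold higher and 5 lower than in neural spots. *Pdgfc* was at 51.9 CPM against 5.66, *Pdgfrl* at 112 against 12.1, and *Fgf1* and *Fgfr3*, which glia express, at 6.98 and 9.48 against 170.3 and 209. Of 10 complement genes 9 were tested and 6 were higher in each comparison, among them *C1ra* at 69.4 CPM against 6.09 and 1.60 and *Cfb* at 102 against 7.04 and 4.42. Of 10 dendritic cell genes 7 were tested, and 5 were higher and 2 lower than in neural spots. *Ccr7*, of migrating dendritic cells and naive T cells, stood at 34.3 CPM against 5.82. The defining genes of type 1 dendritic cells, *Xcr1* and *Clec9a*, stood at 7.53 and 3.85.

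Of 20 genes of p53 and cell cycle control 19 were tested, and 8 were higher and 1 lower than in neural spots, with *Ccnd1* at 446 CPM against 106 and 597. Of 7 Schwann cell genes 4 were tested, 0 were higher and 3 lower, and *Sox10* stood at 2.89 CPM. Of 4 erythrocyte genes 2 were tested in each comparison and both were lower, with *Hbb-bs* at 2.52 CPM against 16 and 28.4. *Hoxb2*, *Hoxb3* and *Hoxb4* were the Hox genes that reached 10 CPM in either tumor as a whole, at 15.1, 9.48 and 8.37 CPM in the collagen-rich tumor and 29.6, 12.7 and 11.5 in the epithelial tumor.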
